A study of Danio rerio with 12 samples.

Results

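Embryos in which the 4 B1 *sox* genes *sox2*, *sox3*, *sox19a* and *sox19b* were knocked down together (quadruple knockdown, QKD) were compared with wild-type (WT) embryos at the tailbud (TB) stage, when gastrulation ends. The samples were chosen by their titles and are 4 of the 12 Affymetrix Zebrafish Genome arrays of the series, with 2 QKD TB arrays and 2 WT TB arrays. Each is of RNA from 100 whole embryos according to the labels. The study's methods give a range of embryo numbers that has 100 as its upper end. QKD embryos received antisense morpholino oligonucleotides (MOs) against all 4 genes at the one-cell stage, and WT embryos were uninjected. No array of embryos injected with a control MO was among the samples, so that injection and knockdown cannot be told apart in these data. The study's text describes QKD embryos as late in completing epiboly, and the part of developmental delay in the differences below was not tested. In RNA from whole embryos, fewer cells of a type and less RNA per cell cannot be told apart.

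B1 Sox proteins are HMG-box transcription factors that, with Pou5f3 in the early zebrafish embryo, bind the enhancers of many developmental genes. They are best known for maintaining neural progenitors, and their genes mark the neural plate of vertebrate embryos. At TB the ectoderm of the zebrafish embryo is divided into the neural plate, its border, from which neural crest and placodes arise, and the epidermal ectoderm, while somites and notochord form beneath.

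The agents that define the QKD group were 8 MOs, 2 for each gene and each 25 bases long, shown because the whole comparison rests on them. Capitals mark the 5 bases altered in the mismatch control of each MO, none of which was used on these arrays.
sox2-MO2: gaGagGctgctGaagttacCttaGc
sox2-MO3: gaaaGtctaCccCacCagccGtaaa
sox3-MO1: taCattCttaaaagtgGtgcCaaGc
sox3-MO2: gaaGtcaGtcaaaaGttCagaGagc
sox19a-MO1: gtaCatGgctgcCaacaGaaGttag
sox19a-MO2: aaaaCgaGagcgaGccGtctGtaac
sox19b-MO1: gtaCatCatgcCacttCtcgCtttg
sox19b-MO2: acGagcGagcCtaatcaGgtCaaac
The longest run of bases shared by MOs to different genes was 9, between sox19a-MO2 and sox19b-MO2.

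Values are linear signals from robust multi-array averaging (RMA), which have no unit and cannot be compared between probe sets, and changes are log2 differences, QKD minus WT, with the standard error (SE) of the fit. A probe set was called where limma's Benjamini-Hochberg adjusted p was below 0.05 over 15502 probe sets. At TB 498 probe sets were lower and 488 were higher in QKD embryos, which is 6.36% of those tested (3.21% lower and 3.15% higher), and 14516 were not called. These shares are the background for the counts of each gene list below. The decreases were larger than the increases. Of the lower probe sets, 165 were below -1, 35 below -2 and 7 below -3 on the log2 scale, while 93 of the higher probe sets were above 1, 10 above 2 and 0 above 3. The lowest change was -4.91 and the highest 2.98, around a median of 0.01 over all probe sets. When the replicate number was fitted as a block within each stage, 983 were lower and 1126 were higher (13.6%). All 164 results for named genes called at TB were kept with this block. The fits that leave out 1 array have no block, so that 1 array stays without its same-numbered partner. Without QKD TB replicate 1, QKD TB replicate 2, WT TB replicate 1 and WT TB replicate 2 in turn, 322, 264, 267 and 359 were lower and 214, 286, 272 and 238 were higher.

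The 2 arrays of a group correlated at 0.995 in each group, and QKD with WT arrays at 0.987 to 0.989 (log2 signals across probe sets). The lower quartile of signal reached 24.1, and values below it lie near the dim end of the array. The dimmer group was below this level for 86 of the lower and 73 of the higher probe sets, where the size of the change is least certain. The QKD and WT arrays were apart for all 986 called probe sets and for 47.1% of all probe sets tested. Of 79 genes called lower that had several probe sets, 16 had all of them called lower, and of 82 called higher, 26 had all called higher, and 0 had a probe set called the other way. Besides *her3* and *tfap2c*, described below, another probe set was not called for *sox2* (0.05), *zic2a* (-0.36), *hoxb10a* (-0.03), *pcdh18a* (-0.12), *dusp6* (-0.29) and *cyp26b1* (-0.18 and -0.33).

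**Figure D1:**
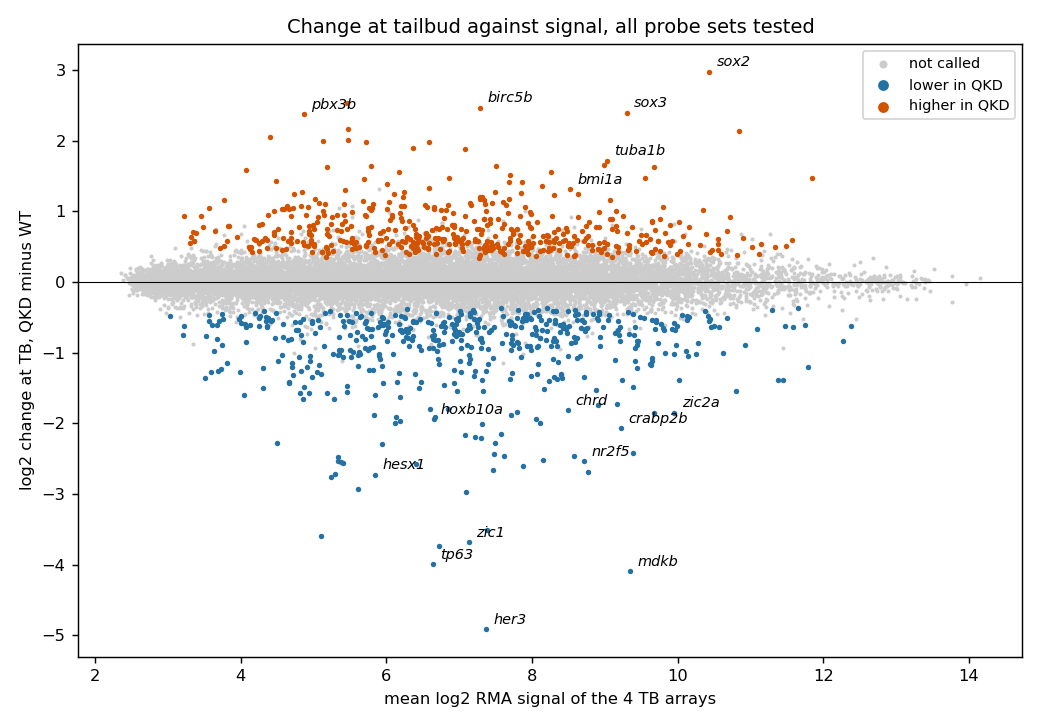
Each point is a probe set, with its mean log2 signal over the 4 TB arrays on the x axis and its log2 change (QKD minus WT) on the y axis. The 498 lower probe sets (blue) reach -4.91 for *her3*, and the 488 higher ones (orange) reach 2.98 for *sox2*.

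Transcripts of the targeted genes were higher in QKD embryos. Since MOs act on translation, these transcripts do not measure the loss of the proteins. *sox2* gave 3950 and 3805 in QKD arrays and 880 and 877 in WT arrays at its brightest probe set (log2 change 2.14, SE 0.14, adjusted p = 7.31e-06). *sox3* gave 6365 and 5911 in QKD arrays and 2226 and 2173 in WT arrays (1.48, SE 0.12, adjusted p = 2.15e-05). The QKD arrays of both genes lay well above the WT arrays. The changes of *sox19b* (1.25, SE 0.26, adjusted p = 0.0148) and *sox19a* (0.53, SE 0.12, adjusted p = 0.0172) were smaller. Both calls were lost without QKD TB replicate 1 or WT TB replicate 2. With the replicate block both were kept (adjusted p = 4.11e-05 for *sox19b* and 0.00494 for *sox19a*). The other *sox19b* probe set, with 612 and 457 in QKD arrays and 222 and 144 in WT arrays, was higher (1.57, SE 0.19, adjusted p = 0.000481), and its call was kept without any 1 TB array (adjusted p at most 0.00675). Of the B1 genes that were not targeted, *sox1b* was not analysed here. *sox1a* was not called at the probe set with its highest mean log2 signal over all 12 arrays (0.08, SE 0.13, adjusted p = 0.867). This probe set gave 62.2 and 55.4 in QKD arrays and 55.3 and 55.5 in WT arrays. Another of the 3 *sox1a* probe sets was brighter in the WT TB arrays and was called lower. It gave 92.2 and 52.8 in QKD arrays and 152 and 118 in WT arrays (-0.94, SE 0.23, adjusted p = 0.0343). That call was lost without QKD TB replicate 2, WT TB replicate 1 or WT TB replicate 2 (adjusted p = 0.0578 to 0.224). Among 13 other *sox* genes measured, 2 were lower and 1 was higher. The lower ones were the group B2 genes *sox21a* (-1.25) and *sox21b* (-1.03), which encode HMG-box repressors, and the higher one was *sox11b* (0.92).

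The 2 largest decreases were in *her3* and *mdkb*. *her3*, which encodes a Hairy/E(spl)-type repressor that keeps *neurog1* off in parts of the neural plate, fell to 31.6 and 29.0 in QKD arrays, against 969 and 851 in WT arrays (log2 change -4.91, SE 0.17, adjusted p = 5.16e-08). A second *her3* probe set was dim in all 4 arrays (13.7 and 13.2 in QKD arrays, 12.2 and 14.7 in WT arrays) and was not called. *mdkb*, which encodes the heparin-binding growth factor Midkine-b, gave 162 and 153 in QKD arrays and 2784 and 2607 in WT arrays (-4.09, SE 0.16, adjusted p = 1.44e-07). Both genes were at a small part of their WT level, with the replicates close together. Of 25 neural progenitor genes measured, which include *her3* and *mdkb*, 5 were lower and 2 were higher, with a median of -0.09 against 0.01 for all probe sets. The other 18 members were not called. The higher members were *bmi1a*, a Polycomb group gene (1.31, SE 0.19, adjusted p = 0.00183), and the RNA-binding protein gene *msi2b* (0.80, SE 0.21, adjusted p = 0.0489). The *msi2b* call was lost without QKD TB replicate 1 or either WT TB array (adjusted p = 0.12 to 0.32).

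**Figure D2:**
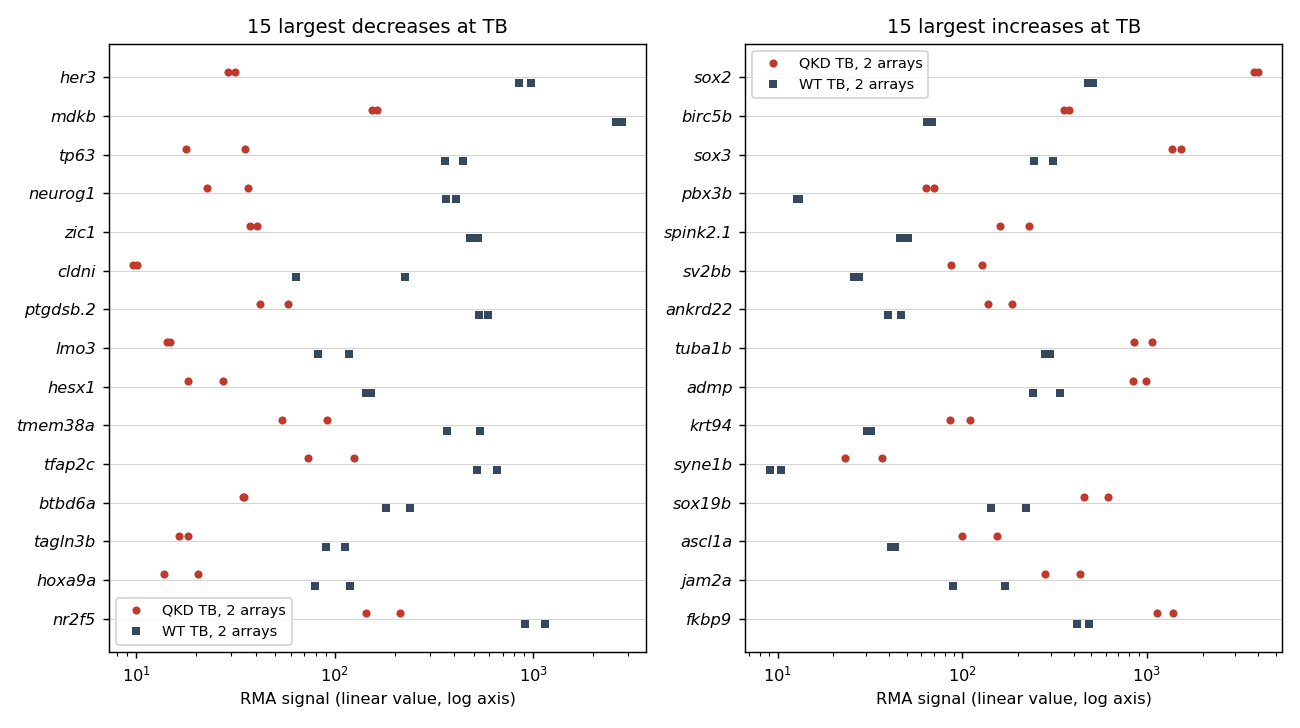
Linear RMA signal on a log axis in the 2 QKD TB (red circles) and 2 WT TB (dark squares) arrays for the 15 genes with the largest decreases and the 15 with the largest increases. QKD and WT arrays are apart for each gene because this was required for the choice of genes. The WT arrays of *cldni* differ from each other by more than those of the other decreased genes.

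The *zic* genes, which encode zinc finger transcription factors of the neural plate and its border, were the list with the lowest median, -1.60. Of 6 measured, 4 were lower and 0 higher, also without any 1 of the 4 TB arrays. *zic1* gave 40.7 and 37.5 in QKD arrays and 482 and 525 in WT arrays (-3.68, SE 0.12, adjusted p = 5.16e-08). *zic5* gave 15.3 and 19.2 in QKD arrays and 110 and 82.0 in WT arrays (-2.47), and *zic2a* gave 501 and 547 in QKD arrays and 1846 and 1922 in WT arrays (-1.85). *zic4* was also lower (-1.35), at signals below 24.1 in all 4 arrays. With dim probe sets filtered out, 2 *zic* genes were lower. *zic2b* was not called, with 2620 and 2650 in QKD arrays and 2227 and 2229 in WT arrays (0.24, SE 0.10, adjusted p = 0.241).

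Of 40 forebrain and eye field genes measured, 17 were lower and 1 was higher, against 3.21% and 3.15% of all probe sets, with a median of -0.35. With probe sets that were dim over all 12 arrays filtered out, 7 were lower. *hesx1*, a homeobox repressor of the anterior forebrain, gave 27.5 and 18.3 in QKD arrays and 144 and 152 in WT arrays (-2.72, SE 0.22, adjusted p = 2.49e-05). *rx3*, which is needed for the eye field, gave 165 and 161 in QKD arrays and 875 and 916 in WT arrays (-2.46, SE 0.28, adjusted p = 0.000356). The LIM-only gene *lmo3* was lower at both of its brighter probe sets, with 14.7 and 14.3 in QKD arrays and 118 and 82.3 in WT arrays at the one that changed most (-2.76). These genes were near the dim end in one or both QKD arrays, apart from *rx3*. *six3a* (-0.98), *six3b* (-1.04) and *pax6b* (-1.26), homeobox genes of the forebrain and eye, were lower by about the same amount. *nkx2.9* (-1.59) and *nkx2.2b* (-1.21) of the ventral neural tube were lower from already dim WT signals, and the *nkx2.2b* call was lost without either QKD TB array (adjusted p = 0.069 to 0.11). The forebrain and midbrain gene *otx2b* was not called, with 1427 and 1296 in QKD arrays and 988 and 1019 in WT arrays (0.44, SE 0.16, adjusted p = 0.142). The forebrain gene *lhx5*, described below, was not on this list and was higher (0.82, SE 0.13, adjusted p = 0.00359). The 1 member called higher was *sp5a* (0.44, SE 0.11, adjusted p = 0.0437), a call that was lost without any 1 TB array (adjusted p = 0.092 to 0.24), while 3 members were higher with the replicate block. Between 12 and 17 members were lower without 1 TB array.

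Farther back along the axis the picture was mixed. Of 39 midbrain and hindbrain genes measured, 5 were lower and 4 were higher, with a median of 0.08. *nr2f5*, an orphan nuclear receptor gene of the COUP-TF family, gave 213 and 144 in QKD arrays and 1138 and 904 in WT arrays (-2.53, SE 0.24, adjusted p = 9.42e-05). *foxb1b*, a forkhead gene of the neural plate, gave 90.2 and 84.2 in QKD arrays and 198 and 182 in WT arrays (-1.12). Both were separated from WT by more than the spread of the replicates. *egr2b*, which marks rhombomeres 3 and 5 of the hindbrain, was lower (-1.01, SE 0.22, adjusted p = 0.0174), as was *gbx2* of the midbrain-hindbrain boundary (-0.92, SE 0.19, adjusted p = 0.0146). Both calls were lost without QKD TB replicate 2 or WT TB replicate 1, and that of *egr2b* also without QKD TB replicate 1 (adjusted p = 0.053 to 0.13). The boundary genes *pax2a* (-0.33, adjusted p = 0.145) and *en2a* (-0.34, adjusted p = 0.39) were not called, and *pax2a* passed with the replicate block (adjusted p = 0.0393).

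The higher members were *pbx3b*, *irx4b*, *irx3a* and *nr2f2*. *pbx3b*, which encodes a homeodomain cofactor of Hox proteins, gave 70.4 and 63.2 in QKD arrays and 12.8 and 13 in WT arrays (2.37, SE 0.14, adjusted p = 2.3e-06). It was thus well above the dim end in QKD embryos and below it in WT embryos. *irx4b* was also higher (0.72, SE 0.11, adjusted p = 0.0019). The calls of *irx3a* (0.65) and *nr2f2* (0.60) were lost on leaving out any TB array, apart from that of *irx3a* without WT TB replicate 1 (adjusted p = 0.061 to 0.32). With the replicate block 8 midbrain and hindbrain genes were lower and 5 higher. Without QKD TB replicate 2 and without WT TB replicate 1, 2 and 3 were lower, and without QKD TB replicate 1, QKD TB replicate 2 or WT TB replicate 2, 2 were higher.

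Among *hox* genes, which pattern the body axis from hindbrain to tail, 8 of 42 measured were lower and 0 were higher, with a median of -0.11. With dim probe sets filtered out, 2 were lower. *hoxb10a* gave 63.4 and 41.4 in QKD arrays and 243 and 159 in WT arrays (-1.94, SE 0.22, adjusted p = 0.000307). *hoxa9a* was lower at both of its probe sets (-2.53 and -1.60), with 20.4 and 13.8 in QKD arrays and 119 and 79.4 in WT arrays at the first. *hoxd9a* (-1.12) and *hoxc9a* (-1.02) were lower too, so that the 4 largest decreases were in paralog groups 9 and 10. The call of *hoxd9a* was lost without QKD TB replicate 2 or WT TB replicate 1, and that of *hoxc9a* without either QKD TB array (adjusted p = 0.055 to 0.091). *hoxb1a*, which marks rhombomere 4, gave 312 and 266 in QKD arrays and 339 and 236 in WT arrays, which overlap (0.03, SE 0.17, adjusted p = 0.976). Without QKD TB replicate 1, QKD TB replicate 2 or WT TB replicate 1, 5, 4 and 5 *hox* genes were lower, and 1 was higher without WT TB replicate 1.

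Genes of the retinoic acid pathway, a signal that patterns the hindbrain, were lower in 6 of 20 cases and higher in 0, with a median of -0.18. The list shares *nr2f5* with the midbrain and hindbrain genes. The cellular retinoic acid-binding protein genes were both lower: *crabp2b* gave 284 and 301 in QKD arrays and 1153 and 1304 in WT arrays (-2.07, SE 0.14, adjusted p = 8.52e-06). *crabp2a* gave 182 and 160 in QKD arrays and 543 and 432 in WT arrays (-1.51, SE 0.14, adjusted p = 7.49e-05). These values are separated by several times the spread between replicates. The degrading enzyme gene *cyp26b1* was lower (-0.83, SE 0.13, adjusted p = 0.00249), as were *cyp26a1* (-0.89, SE 0.19, adjusted p = 0.0187) and the retinol transporter gene *stra6* (-1.43, SE 0.31, adjusted p = 0.0163). The *cyp26a1* call was lost without QKD TB replicate 1 or WT TB replicate 2 (adjusted p = 0.15), and that of *stra6* on leaving out any TB array but WT TB replicate 2 (adjusted p = 0.052 to 0.11).

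Proneural and neuronal genes moved in both directions. Of 49 measured, 8 were lower and 6 higher, and the median of 0.01 was that of all probe sets. *neurog1*, the proneural bHLH gene of the primary neurons, gave 36.8 and 22.6 in QKD arrays and 408 and 362 in WT arrays (-3.74, SE 0.20, adjusted p = 1.13e-06). *insm1b*, a zinc finger gene of nascent neurons, was lower (-1.41, SE 0.21, adjusted p = 0.00202), and so were the Slit receptor genes *robo3* (-1.30) and *robo1* (-1.19). *inaa*, which encodes the neuronal intermediate filament internexin alpha, gave 16.4 and 18.3 in QKD arrays and 51.1 and 46.6 in WT arrays (-1.49, SE 0.11, adjusted p = 1.26e-05). The genes that were higher include some linked to neurons. *tuba1b*, a tubulin gene, gave 1694 and 1231 in QKD arrays and 481 and 453 in WT arrays at its brightest probe set (1.63, SE 0.27, adjusted p = 0.00388). The calretinin gene *calb2b* (1.13, SE 0.14, adjusted p = 0.000449) and the 14-3-3 gene *ywhag2* (1.16, SE 0.16, adjusted p = 0.0014) were also higher, the last from signals of 8.11 and 10.3 in WT arrays.

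*ascl1a*, another proneural bHLH gene, gave 155 and 99.6 in QKD arrays and 43.3 and 41.2 in WT arrays (1.55, SE 0.41, adjusted p = 0.0458). Its QKD arrays lay above both WT arrays but far from each other, and the call was lost without any 1 of the 4 TB arrays (adjusted p = 0.079 to 0.28). The axonal growth gene *stmn2a* was near the dim end in both groups, with 25.8 and 25.2 in QKD arrays and 24.4 and 25.8 in WT arrays. Just 3 proneural and neuronal genes were higher without QKD TB replicate 1 or WT TB replicate 2, and 6 to 7 were lower without 1 TB array.

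Of 29 genes of Notch signalling and segmentation, 7 were lower and 0 higher, with a median of -0.16, and *her3* is one of the 7. The Notch ligand gene *dla* gave 203 and 200 in QKD arrays and 499 and 541 in WT arrays (-1.37, SE 0.16, adjusted p = 0.000341). *her9* (-1.12, SE 0.17, adjusted p = 0.00242), *her2* (-0.96, SE 0.14, adjusted p = 0.00179) and *lfng* (-0.87, SE 0.12, adjusted p = 0.00103), which encodes a glycosyltransferase that modifies Notch, were lower as well. The ligand gene *dlb* gave 44.1 and 35.5 in QKD arrays and 75.2 and 64.0 in WT arrays and was not called (-0.81, SE 0.34, adjusted p = 0.225). This SE draws on the arrays of all stages, and the QKD arrays of *dlb* at 75% epiboly were far apart (mean 98.3, SD 56.9). With the replicate block 12 genes of this list were lower and 1 was higher.

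Genes of the non-neural ectoderm and the plate border were lower in 15 of 31 cases and higher in 2, with a median of -0.36. *tp63*, the p63 gene of the basal epidermis, gave 35.4 and 17.8 in QKD arrays and 444 and 359 in WT arrays at 1 probe set (-3.99, SE 0.29, adjusted p = 1.49e-05), and 72.0 and 56.6 in QKD arrays and 310 and 265 in WT arrays at the brighter one (-2.17, SE 0.13, adjusted p = 4.13e-06). Both probe sets thus had QKD values far below WT values, with different sizes of change. *tfap2c*, an AP-2 gene of non-neural ectoderm, gave 125 and 73.5 in QKD arrays and 657 and 518 in WT arrays (-2.61, SE 0.22, adjusted p = 4.74e-05). A second *tfap2c* probe set was dim in all 4 arrays (16.7 and 20.5 in QKD arrays, 19.1 and 18.2 in WT arrays) and was not called (-0.01, SE 0.12, adjusted p = 0.983). Its paralog *tfap2a* was lower too (-1.39, SE 0.13, adjusted p = 9.26e-05). The border gene *msx1a* gave 70 and 68.9 in QKD arrays and 297 and 342 in WT arrays (-2.20, SE 0.13, adjusted p = 2.3e-06). *foxi1*, a forkhead gene of placodes and ionocyte precursors, gave 102 and 80.9 in QKD arrays and 388 and 419 in WT arrays (-2.15, SE 0.15, adjusted p = 7.92e-06). *dlx3b*, a homeobox gene of the plate border, gave 299 and 233 in QKD arrays and 915 and 841 in WT arrays (-1.73, SE 0.18, adjusted p = 0.000197). All 6 genes were lower in both QKD arrays than in either WT array, but arrays were apart for all 986 called probe sets and for 47.1% of all probe sets.

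The decreases of *foxd3*, a neural crest gene (-0.82, SE 0.14, adjusted p = 0.00488), and *gata2a*, a GATA factor gene of ventral ectoderm and blood (-0.66, SE 0.15, adjusted p = 0.0274), were smaller. The *foxd3* call was lost without QKD TB replicate 1 or WT TB replicate 1 (adjusted p = 0.054), and that of *gata2a* without QKD TB replicate 2 or either WT TB array (adjusted p = 0.10 to 0.21). *eve1*, a ventral and posterior homeobox gene, was called only with the replicate block (-0.32, adjusted p = 0.309, and 0.0389 with the block). The higher members were *six4a* (0.57, SE 0.09, adjusted p = 0.00286) and *twist1a* (0.73, SE 0.14, adjusted p = 0.011). The *twist1a* call was lost on leaving out any TB array but WT TB replicate 2 (adjusted p = 0.051 to 0.09). Without WT TB replicate 1, 9 members were lower.

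**Figure D3:**
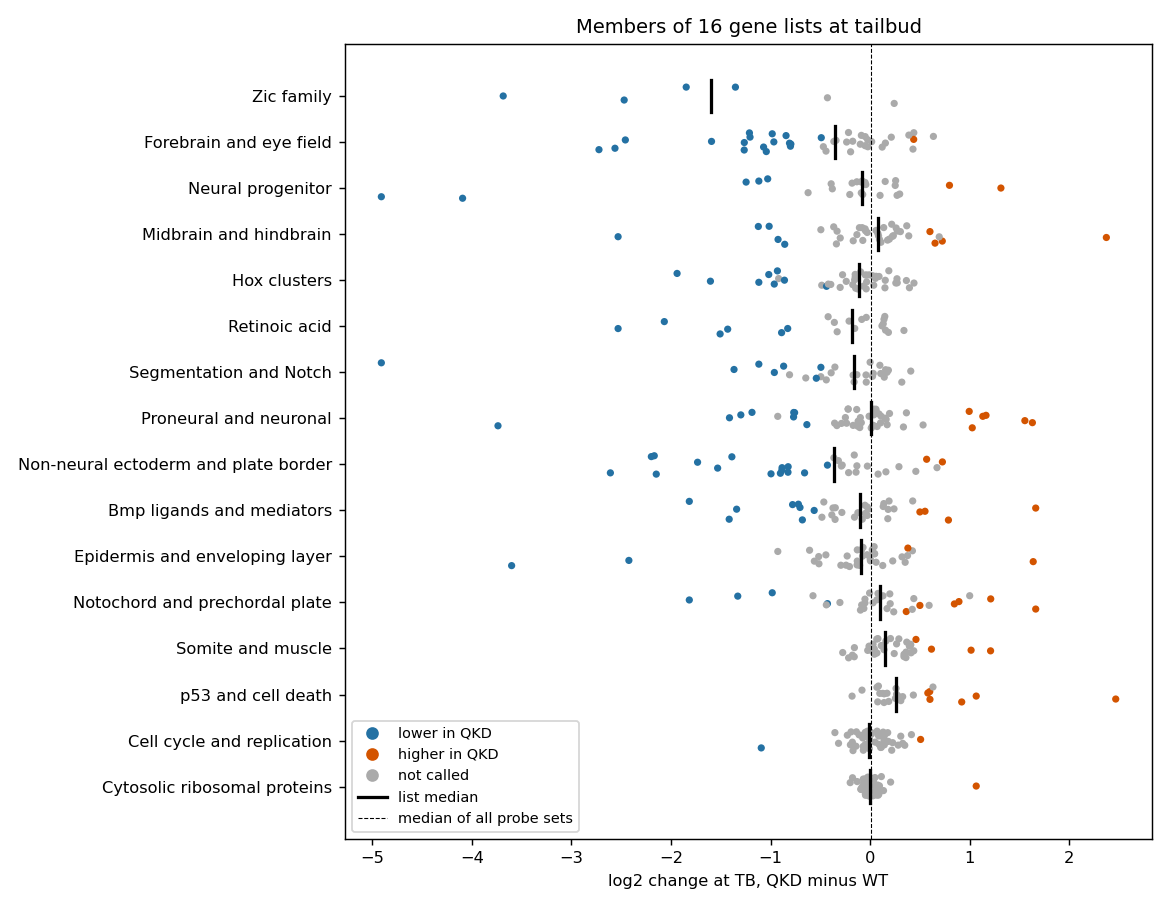
Each point is 1 gene (its brightest probe set), placed by its log2 change at TB (QKD minus WT), in 16 gene lists. Points called lower are blue, higher orange and not called grey, black bars are list medians and the dashed line is the median of all probe sets, 0.01. The *zic* bar lies at -1.60, and the ribosomal proteins lie within a narrow band around 0 but for 1 gene.

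The genes of differentiated epidermis and enveloping layer, the outermost sheet of cells, were called in both directions. Of 39 measured, 2 were lower and 2 were higher (10.3%, against 6.36% of all probe sets), with a median of -0.09. The claudin gene *cldni* gave 10.1 and 9.66 in QKD arrays and 226 and 63.8 in WT arrays (-3.60, SE 0.40, adjusted p = 0.000277), so that the size of the change rests on WT arrays that are far apart. The transgelin gene *tagln2* gave 191 and 436 in QKD arrays and 1391 and 1722 in WT arrays (-2.42, SE 0.50, adjusted p = 0.0136), and its call was lost without QKD TB replicate 1 or either WT TB array (adjusted p = 0.06 to 0.13). The keratin gene *krt94* gave 111 and 85.4 in QKD arrays and 32.2 and 30.3 in WT arrays (1.64, SE 0.26, adjusted p = 0.00313). The call of the protease inhibitor gene *spint1a* (0.38) was lost without any 1 TB array (adjusted p = 0.096 to 0.26). With the replicate block 7 were lower and 4 higher.

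Of 34 genes of Bmp signalling, which sets ventral fate and non-neural ectoderm, 8 were lower and 4 were higher, with a median of -0.10. *chrd*, the gene of the secreted Bmp antagonist Chordin, gave 171 and 215 in QKD arrays and 653 and 697 in WT arrays (-1.82, SE 0.14, adjusted p = 1.96e-05). *gdf6a*, a Bmp ligand gene, gave 16.7 and 14.5 in QKD arrays and 53.3 and 32.4 in WT arrays (-1.42, SE 0.19, adjusted p = 0.00107). *bmp2b*, also a ligand gene, gave 382 and 367 in QKD arrays and 607 and 678 in WT arrays (-0.78, SE 0.10, adjusted p = 0.000851). Genes of ligands and of an antagonist were thus among the lower ones. The ligand gene *admp* and the antagonist gene *nog1* were higher, as given below. *szl*, which encodes an inhibitor of the Chordin protease, was lower (-1.34, SE 0.27, adjusted p = 0.0124), a call lost without QKD TB replicate 2 or either WT TB array (adjusted p = 0.055 to 0.12). *bmp4* (-0.46, SE 0.19, adjusted p = 0.213) and *bmp7a* (-0.48, SE 0.16, adjusted p = 0.102) were called only with the replicate block (adjusted p = 0.00924 for *bmp4* and 0.0104 for *bmp7a*).

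*admp*, a Bmp-type ligand gene of the organizer, gave 834 and 983 in QKD arrays and 242 and 338 in WT arrays (1.66, SE 0.17, adjusted p = 0.000194), the opposite direction to *bmp2b*. *bmper* (0.79, SE 0.14, adjusted p = 0.00559), *smad1* (0.55, SE 0.11, adjusted p = 0.014) and the antagonist gene *nog1* (0.50, SE 0.12, adjusted p = 0.0251) were higher. The *bmper* call was lost without QKD TB replicate 2 (adjusted p = 0.05), that of *smad1* without QKD TB replicate 2 or WT TB replicate 1, and that of *nog1* without any 1 TB array (adjusted p = 0.05 to 0.18). Without 1 TB array 4 to 5 Bmp genes were lower, and 1 and 2 were higher without QKD TB replicate 2 and without WT TB replicate 1. With the replicate block 13 were lower and 5 higher.

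Axial mesoderm genes moved in both directions. Of 32 genes of notochord and prechordal plate, 4 were lower and 6 were higher, with a median of 0.10, and the list shares *chrd*, *admp* and *nog1* with the Bmp genes. *lhx1a*, a LIM homeobox gene of the organizer, gave 244 and 240 in QKD arrays and 113 and 96.8 in WT arrays (1.21, SE 0.13, adjusted p = 0.000247). *noto*, a homeobox gene needed for the notochord, gave 1268 and 1092 in QKD arrays and 591 and 680 in WT arrays (0.89, SE 0.11, adjusted p = 0.000684). QKD arrays were above WT arrays at both genes, though arrays were apart for every called probe set. The pan-mesodermal and notochord gene *tbxta* (0.17, SE 0.10, adjusted p = 0.431) and the prechordal gene *gsc* (0.42, SE 0.17, adjusted p = 0.209) were not called. The number higher was 3 without QKD TB replicate 1 or WT TB replicate 2, and 7 were lower with the replicate block.

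The hedgehog ligand genes differed. *shhb* gave 96.4 and 90.6 in QKD arrays and 244 and 226 in WT arrays (-1.33, SE 0.16, adjusted p = 0.000484), while *shha* gave 271 and 219 in QKD arrays and 269 and 198 in WT arrays, which overlap (0.08, SE 0.16, adjusted p = 0.898). Of 19 hedgehog pathway and target genes, 3 were lower and 2 higher. The winged helix gene *foxa1* was one of the higher (1.21, SE 0.15, adjusted p = 0.000665), and the call of *foxa* (0.36) was lost without any 1 TB array (adjusted p = 0.096 to 0.25), which left 1. The number lower was 2 without QKD TB replicate 1, and with the replicate block 3 were higher.

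Of 16 Nodal pathway genes, 2 were lower and 1 was higher, with a median of 0.11. *tdgf1*, the Nodal co-receptor gene also known as one-eyed pinhead, gave 149 and 129 in QKD arrays and 479 and 637 in WT arrays (-2.00, SE 0.15, adjusted p = 2.15e-05). The Nodal antagonist gene *lft2* was lower (-1.08, SE 0.18, adjusted p = 0.00382), and the receptor gene *acvr1ba* higher (0.55, SE 0.10, adjusted p = 0.00519), a call lost without WT TB replicate 2 (adjusted p = 0.051). The ligand gene *ndr2* was not called, with 79.2 and 91.8 in QKD arrays and 68.4 and 83.2 in WT arrays (0.18, adjusted p = 0.605). There were 3 lower Nodal genes without QKD TB replicate 1, and with the replicate block 4 were lower and 4 higher. Of 24 FGF pathway genes, 2 were lower and 0 higher (8.33% called, against 6.36% of all probe sets). They were the ligand gene *fgf8a*, with 326 and 343 in QKD arrays and 573 and 510 in WT arrays (-0.69, SE 0.10, adjusted p = 0.00182), and *dusp6*, a feedback phosphatase of the pathway (-0.84, SE 0.12, adjusted p = 0.00132). Without WT TB replicate 2, 3 were lower, 1 was higher without QKD TB replicate 2, and 7 were lower and 3 higher with the replicate block.

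Somite and muscle genes were lower in 0 and higher in 4 of 38 cases, with a median of 0.15. The muscle creatine kinase gene *ckma* gave 112 and 117 in QKD arrays and 44.7 and 54.5 in WT arrays (1.21, SE 0.13, adjusted p = 0.000197). *tmod4*, a tropomodulin gene of muscle (1.01), *fn1a*, a fibronectin gene (0.62), and *foxc1b* (0.46) were the others. The *tmod4* call was lost without QKD TB replicate 1 or WT TB replicate 2, that of *fn1a* also without WT TB replicate 1, and that of *foxc1b* without any 1 TB array (adjusted p = 0.051 to 0.15). That left 1 without QKD TB replicate 1 or WT TB replicate 2 and 2 without WT TB replicate 1, against 10 with the replicate block. The muscle regulator gene *myod1* was dim and not called (0.29, SE 0.16, adjusted p = 0.396). Of 20 posterior and tailbud genes, *nkx1.2la* (-0.93, SE 0.13, adjusted p = 0.00143) and *fgf8a* were lower and 0 were higher, while 2 were higher with the replicate block, which also gave 3 lower.

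Genes of cell adhesion and matrix moved both ways. Of 39 cadherin, protocadherin and claudin genes, 5 were lower, also without any 1 TB array, and 3 were higher. *cdh11* gave 114 and 85.2 in QKD arrays and 271 and 244 in WT arrays (-1.38, SE 0.16, adjusted p = 0.000281), and *pcdh18a* gave 40.7 and 29.7 in QKD arrays and 140 and 136 in WT arrays (-1.99, SE 0.20, adjusted p = 0.00017). The E-cadherin gene *cdh1* was not called (-0.20, SE 0.09, adjusted p = 0.288). *pcdh10b* was higher (0.78, SE 0.11, adjusted p = 0.00179), and the calls of *cldn3d* (1.39) and *cldn3c* (0.59) were lost, the first without QKD TB replicate 2 or WT TB replicate 1 and the second without QKD TB replicate 1 or either WT TB array (adjusted p = 0.058 to 0.27). Without WT TB replicate 1, 1 was higher. Of 27 other adhesion and matrix genes, 4 were lower and 5 higher. The dystroglycan gene *dag1* gave 400 and 371 in QKD arrays and 924 and 735 in WT arrays (-1.1, SE 0.13, adjusted p = 0.000418). The junctional adhesion gene *jam2a* gave 282 and 436 in QKD arrays and 88.4 and 170 in WT arrays (1.52, SE 0.30, adjusted p = 0.0104), a call lost without QKD TB replicate 2 or WT TB replicate 1 (adjusted p = 0.086 to 0.10). Without 1 TB array, 2 to 3 of these 27 were lower and 1 to 3 higher, and 6 were lower with the replicate block.

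Of 25 chemokine and guidance genes, 6 were lower and 3 were higher, with a median of -0.09. The Cxcl12 receptor genes *ackr3b*, with 87.5 and 71.7 in QKD arrays and 337 and 300 in WT arrays (-2.00, SE 0.13, adjusted p = 5.4e-06), and *cxcr4a*, with 426 and 327 in QKD arrays and 1033 and 927 in WT arrays (-1.39, SE 0.15, adjusted p = 0.000257), were both lower. *pdgfaa*, a PDGF ligand gene, gave 71.6 and 53.9 in QKD arrays and 268 and 173 in WT arrays (-1.79, SE 0.21, adjusted p = 0.000398). *neo1a*, a netrin receptor gene, was higher, with 211 and 209 in QKD arrays and 109 and 88.0 in WT arrays (1.1, SE 0.12, adjusted p = 0.000212). The calls of the ligand gene *cxcl12b* (0.46) and of *ephb3a* (0.55) were lost on leaving out any TB array, apart from that of *ephb3a* without WT TB replicate 2 (adjusted p = 0.053 to 0.18), so that 1 to 2 were higher without 1 TB array.

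Of 37 genes of Wnt signalling and planar cell polarity, 3 were lower and 1 was higher (10.8%, against 6.36% of all probe sets), with a median of -0.03. The receptor gene *fzd9b* gave 90.3 and 99.3 in QKD arrays and 210 and 207 in WT arrays (-1.14, SE 0.11, adjusted p = 9.17e-05). The changes of *celsr1a* (-0.60), *fzd8a* (-0.51) and *prickle2b* (0.48) were smaller, and each call was lost without QKD TB replicate 2 (adjusted p = 0.063 to 0.19). Those of *fzd8a* were lost also without either WT TB array and of *prickle2b* without QKD TB replicate 1 or WT TB replicate 2 (adjusted p = 0.085 to 0.24), so that 1 was lower without QKD TB replicate 2 and 2 without WT TB replicate 1. *wnt11*, a ligand gene of gastrulation movements, was called only with the replicate block (-0.61, adjusted p = 0.174, and 0.0124 with the block). *wnt5b* (0.05, adjusted p = 0.925) and *wnt4* (0.08, adjusted p = 0.782) were not called, and 7 were lower and 3 higher with the replicate block.

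Several of the largest changes were in genes outside these groups. *ptgdsb.2*, a lipocalin-type prostaglandin D synthase gene, gave 58.3 and 42.2 in QKD arrays and 534 and 593 in WT arrays (-3.50, SE 0.19, adjusted p = 1.13e-06). *tmem38a*, which encodes an intracellular cation channel, gave 91.3 and 54.0 in QKD arrays and 539 and 368 in WT arrays (-2.66, SE 0.25, adjusted p = 9.86e-05). *btbd6a*, which encodes a BTB domain adaptor that promotes neuronal differentiation in zebrafish, gave 35.1 and 34.6 in QKD arrays and 238 and 181 in WT arrays (-2.58, SE 0.15, adjusted p = 2.3e-06). In each of the 3 genes both QKD arrays lay far below WT arrays. *tagln3b*, a transgelin gene, fell to 16.4 and 18.2 in QKD arrays, against 112 and 90.4 in WT arrays (-2.54, SE 0.12, adjusted p = 5.94e-07).

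Among the increases, *birc5b*, one of the pair of survivin genes, gave 356 and 377 in QKD arrays and 64.1 and 68.5 in WT arrays (2.47, SE 0.11, adjusted p = 5.04e-07). *sv2bb*, a synaptic vesicle glycoprotein gene, gave 128 and 86.5 in QKD arrays and 25.7 and 27.6 in WT arrays (1.98, SE 0.16, adjusted p = 2.25e-05). *ankrd22*, an ankyrin repeat gene, gave 137 and 186 in QKD arrays and 39.3 and 46.5 in WT arrays (1.90, SE 0.19, adjusted p = 0.000133). All 3 were at several times the WT signal. *fkbp9*, a peptidyl-prolyl isomerase gene, gave 1375 and 1129 in QKD arrays and 485 and 415 in WT arrays (1.47, SE 0.20, adjusted p = 0.000946). *syne1b*, a nesprin gene, gave 36.5 and 23.1 in QKD arrays, against a dim 10.4 and 9.03 in WT arrays (1.58, SE 0.19, adjusted p = 0.000396). The protease inhibitor gene *spink2.1* was higher (1.98, SE 0.35, adjusted p = 0.0061), a call lost without QKD TB replicate 1 or WT TB replicate 1 (adjusted p = 0.051 to 0.065).

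Genes that respond to p53 or act in cell death were lower in 0 and higher in 6 of 25 cases, with a median of 0.26, the highest of the 35 lists apart from that of the B1 *sox* genes. They were *birc5b*, *rps27l*, *phlda3*, *bbc3*, *ccng1* and *mdm2*. The survivin gene *birc5b* encodes an inhibitor of cell death, so that these genes do not share a role. *rps27l*, a ribosomal protein-like gene that is a p53 target in mammals, gave 1389 and 1193 in QKD arrays and 650 and 582 in WT arrays (1.07, SE 0.17, adjusted p = 0.0035). The p53 target genes *ccng1* (0.60, SE 0.12, adjusted p = 0.0138) and *mdm2*, the negative regulator of p53 (0.58, SE 0.15, adjusted p = 0.0382), and the cell death genes *bbc3* (0.60, SE 0.12, adjusted p = 0.0124) and *phlda3* (0.92, SE 0.24, adjusted p = 0.0455) were higher by less. Without QKD TB replicate 1 or WT TB replicate 2, these 4 calls were lost (adjusted p = 0.075 to 0.32), and 2 genes of the list were higher. Without WT TB replicate 1, 3 were higher. Since WT embryos were not injected, a response to MOs in general and to the loss of B1 Sox cannot be told apart here.

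Lists of basic cell functions each had a smaller share called than all probe sets (6.36%). Of 74 cytosolic ribosomal protein genes 1 was called (*rps27l*, 1.35%), of 50 proteasome subunit genes 0, of 86 respiratory chain genes 3 (3.49%), of 44 splicing genes 2 (4.55%), and of 52 cell cycle and replication genes 2 (3.85%). Of the proteasome genes, 4 had an unadjusted p below 0.05 by limma, and 2 were called with the replicate block. The cell cycle genes called were *tfdp2*, lower (-1.09, SE 0.20, adjusted p = 0.00789), and the cyclin D gene *ccnd1*, higher (0.51, SE 0.12, adjusted p = 0.0342), and both calls were lost without QKD TB replicate 2 or WT TB replicate 1 (adjusted p = 0.064 to 0.23). Without 1 TB array, 0 to 1 respiratory chain genes were higher, against 5 with the replicate block, and 1 splicing gene was higher without QKD TB replicate 2 or either WT TB array. Stress response genes were lower in 0 and higher in 3 of 29 cases (10.3% called), and 7 were higher with the replicate block. Among the 3 was *hsp90aa1.1*, with 198 and 176 in QKD arrays and 112 and 85.8 in WT arrays (0.93, SE 0.14, adjusted p = 0.00237). Of this list 1 was higher without QKD TB replicate 2.

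Among the other tissues of a whole embryo, yolk syncytial layer genes were lower in 4 and higher in 1 of 21 cases. The transferrin gene *tfa* gave 1133 and 965 in QKD arrays and 3176 and 2938 in WT arrays (-1.55, SE 0.15, adjusted p = 0.000133), and the apolipoprotein gene *apoc1* gave 3668 and 3742 in QKD arrays and 6631 and 6578 in WT arrays (-0.83, SE 0.15, adjusted p = 0.0061). The fibrinogen gene *fgg* was higher, with 91.5 and 67.8 in QKD arrays and 39.1 and 38.3 in WT arrays (1.03, SE 0.13, adjusted p = 0.000731), and 4 genes of this list were higher with the replicate block. Blood and vessel genes were lower in 2 and higher in 2 of 29 cases (13.8% called), endoderm genes lower in 3 and higher in 2 of 19 (26.3%), and germ cell genes lower in 1 and higher in 0 of 12 (8.33%). Of all probe sets 6.36% were called. The largest decrease on the endoderm list (-2.005) was the same as on the chemokine and guidance list, where it was that of *ackr3b*. The Kruppel-like gene *klf2b*, of the blood and vessel list, gave 192 and 205 in QKD arrays and 326 and 428 in WT arrays (-0.91, SE 0.15, adjusted p = 0.00442). These counts moved with single arrays. Without 1 TB array, 0 to 1 blood and vessel genes were higher and 1 endoderm gene was, and 0 germ cell genes were lower without QKD TB replicate 2 or either WT TB array. With the replicate block, 5 blood and vessel genes were lower and 4 endoderm genes higher. Of the pluripotency and maternal genes 2 of 15 were lower and 2 higher, against 0 to 1 and 0 to 2 without 1 TB array. The largest increase on the pluripotency and maternal list was that of *sox19b* (1.25), a target of the MOs described above. *pou5f3*, the partner of B1 Sox named above, gave 1560 and 1769 in QKD arrays and 1271 and 1894 in WT arrays, which overlap (0.10, SE 0.16, adjusted p = 0.863).

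The change at TB was set beside that at 75% epiboly (75%E), for which separate QKD and WT embryos were arrayed. At 75%E 605 probe sets were lower and 696 higher (8.39%). Of the TB calls, 237 of the lower (47.6% of the TB calls and 39.2% of those at 75%E) and 234 of the higher (48.0% and 33.6%) were called the same way at 75%E, and 6 and 3 were called the opposite way. The difference between both changes was called for 105 probe sets (0.677%), 72 more negative and 33 more positive at TB, and for 263 and 180 with the replicate block. Leaving out 1 of the 8 arrays gave between 40 (without WT TB replicate 1) and 125 (without WT 75%E replicate 2), with 62, 60 and 50 without QKD TB replicate 1, QKD 75%E replicate 1 and QKD 75%E replicate 2.

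The genes whose change was more negative at TB included *btbd6a*, *hoxa9a*, *neurog1*, *dlb* and *cldni*. *btbd6a* was 0.29 at 75%E and -2.58 at TB (difference -2.87, adjusted p = 0.00022), and *hoxa9a* was -0.18 at 75%E and -2.53 at TB (difference -2.36, adjusted p = 0.00341). Both genes were brighter in WT embryos at TB than at 75%E. These *hoxa9a* values are of its dimmer probe set. At the brighter one the difference was -1.29 and was called only with the replicate block (adjusted p = 0.122, and 0.00488 with the block). *neurog1* was already lower at 75%E (-1.39) and was further below WT at TB (difference -2.35, adjusted p = 0.00366). *dlb* was higher in QKD embryos at 75%E (2.19), unlike at TB (difference -3.00, adjusted p = 0.0158). Its QKD arrays at 75%E were far apart (mean 98.3, SD 56.9), so that the size of this difference is uncertain. At TB neither this probe set (-0.81) nor its other one (-0.30) was called. *her3*, by contrast, had nearly the same change at 75%E (-4.97) and TB (difference 0.06, adjusted p = 0.97).

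The genes whose change was more positive at TB included *dbx1a*, *prdm14*, *lhx5*, *sv2bb* and *inaa*. *dbx1a*, a homeobox gene of the neural tube, was -3.51 at 75%E and -0.80 at TB (difference 2.71, adjusted p = 0.00151), and its TB call was lost on leaving out any TB array but WT TB replicate 2 (adjusted p = 0.054 to 0.22). *prdm14*, a PR domain gene, was lower at 75%E (-2.29) and not called at TB, with 195 and 152 in QKD arrays and 140 and 162 in WT arrays (0.19, SE 0.19, adjusted p = 0.74). *lhx5*, a LIM homeobox gene of the forebrain, was lower in QKD embryos at 75%E (-1.39) and higher at TB, with 302 and 226 in QKD arrays and 146 and 149 in WT arrays (0.82, SE 0.13, adjusted p = 0.00359). The difference between its changes was 2.22 (adjusted p = 0.000457). In WT embryos the signals of *lhx5* and *prdm14* were lower at TB than at 75%E, whereas those in QKD embryos were not. *sv2bb* and *pbx3b* differed from WT mainly at TB (differences 1.99 and 1.72, adjusted p = 0.00225 for both).

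**Figure D4:**
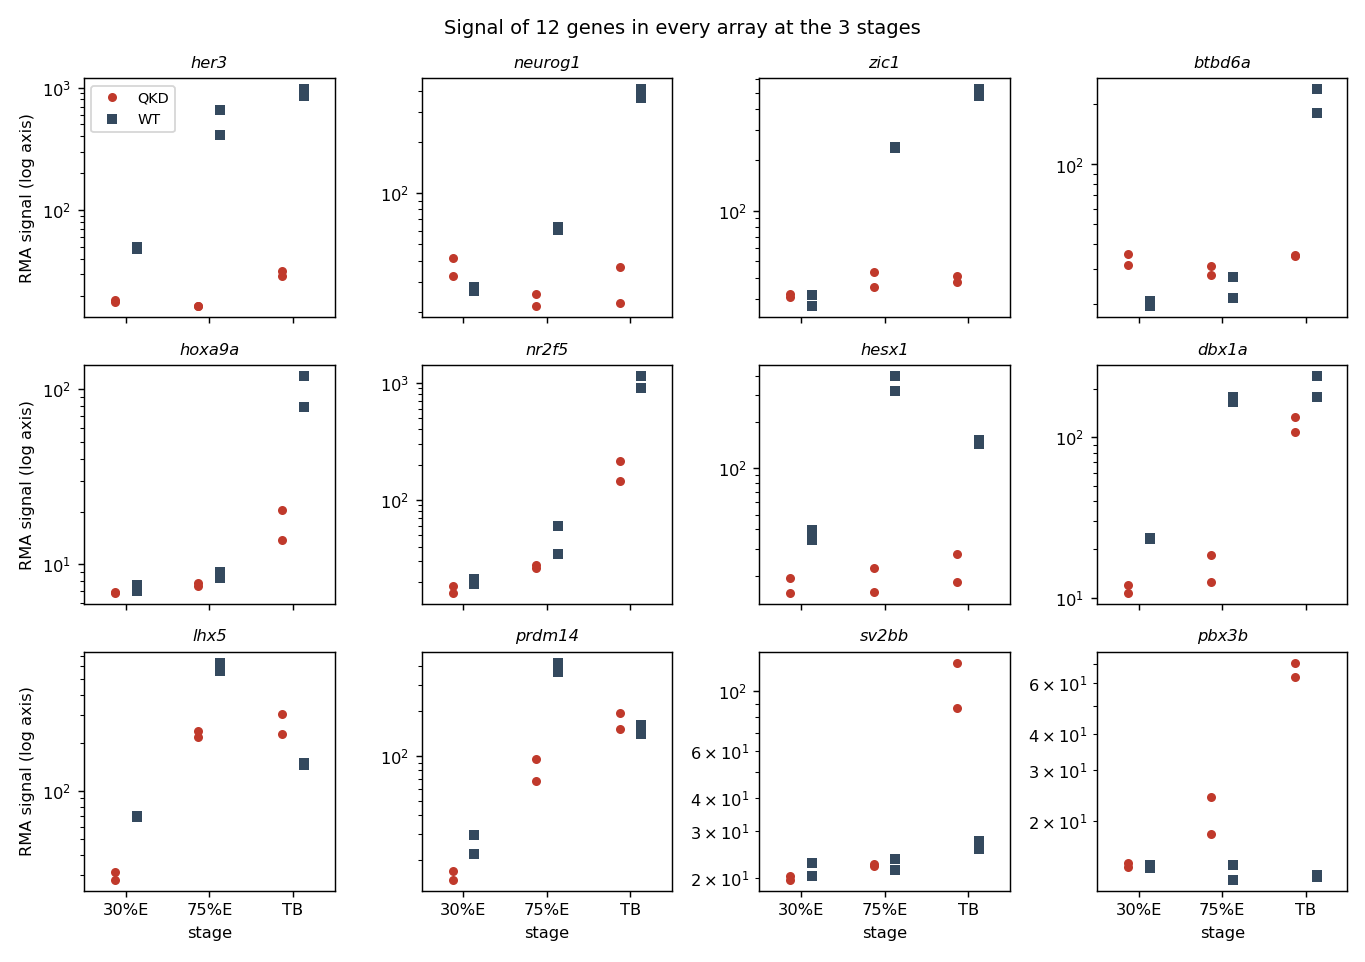
Linear RMA signal (log axis, its own range for each gene) of 12 genes in every array at 30% epiboly (30%E), 75%E and TB, with QKD (red circles) left of WT (dark squares). The *her3* signals are apart at every stage, most at 75%E and TB. Those of *btbd6a* are higher in QKD embryos at 30%E and lower at TB. Those of *hoxa9a*, at its dimmer probe set, are far apart only at TB, and those of *lhx5* change order between 75%E and TB.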

How the data were processed

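RNA of whole embryos was hybridised to Affymetrix Zebrafish Genome arrays, and the authors processed the arrays with RMA. The deposited values are intensity on a linear scale for 15617 probe sets. The 115 controls were dropped, which left 15502. By the platform annotation 10795 of these have 1 gene symbol, 135 several and 4572 none, and genes are named only from probe sets with 1 symbol. Values were log2 transformed and fitted with limma (3.58.1, R 4.3.3) as 6 group means over 12 arrays, which gave 6 residual and 5.11 prior degrees of freedom. A 4-array fit leaves 2 residual degrees of freedom. With 2 arrays per group, their number limits the precision. Nothing in the sources used here gives detection calls or scan batches. The scripts were tested on simulated data.

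The labels number the 2 samples of each stage, and the same numbers stand in QKD and WT. Same-numbered QKD and WT arrays deviated together (correlation of deviations 0.615, 0.443 and 0.488 at 30%E, 75%E and TB, against -0.0835 to 0.183 between stages). The main fit has no term for the number, so that its calls and adjusted p-values ignore this pairing. The number was fitted only in the alternative called the replicate block. The labels call the samples biological replicates and the methods call them independent, without saying what a number marks. The p-values measure only the spread between these samples.

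Gene lists (35) were written from general knowledge and from genes named by the study, and each gene is represented by its brightest probe set. The lists, tests and members were chosen with earlier results of these data known. Named genes are, from called probe sets with 1 symbol and arrays apart, the 15 lowest and the 15 highest log2 changes, up to 4 called members of each list and direction with members of a defining role, the 5 largest differences in each direction between the changes at TB and 75%E, and genes that the study measured by other means. List members not named on the arrays were not analysed here. After values were seen, *noto* was taken off the Nodal list and kinases matched by name off the ribosomal list. MO sequences were copied from the study's oligonucleotide list. Figures were drawn with matplotlib 3.10.9.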

Additional observations from a re-analysis of the deposited data

Results flagged for a closer look

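The change of the following genes differed between TB and 75%E by the contrast of the limma fit (adjusted p below 0.05). Values are the TB change minus the 75%E change on the log2 scale. Among genes lower at TB with a smaller change at 75%E, it was -1.30 for *tagln3b*, -1.79 for *nr2f5*, -1.08 for *zic1* and -1.03 for *chrd*. For *lmo3*, of the same kind, it was -1.33 at the probe set with its largest change and -1.72 at its brightest. It was also -2.35 for *neurog1* and -1.03 for the *tp63* probe set with the smaller change at TB. At the other *tp63* probe set the difference was not called (-0.96, adjusted p = 0.479).

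Among genes lower at TB with a change within 0.35 of 0 at 75%E, it was -2.87 for *btbd6a*, -3.64 for *cldni*, -2.36 for the dimmer probe set of *hoxa9a*, -1.51 for *dla*, -1.42 for *cdh11*, -1.28 for *zic4*, -1.28 for *nkx2.9*, -1.26 for *sox21a*, -1.20 for *crabp2a* and -0.83 for *fgf8a*. At the brighter *hoxa9a* probe set the difference was not called (-1.29, adjusted p = 0.122). The difference was -1.55 for *gbx2* and -3.00 for *dlb*, whose changes at 75%E were 0.63 and 2.19. Of these, *dlb* was not called at TB.

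Among genes with a more positive change at TB, it was 2.71 for *dbx1a*, 1.82 for *inaa*, 1.34 for *klf2b* and 1.21 for *six3a*, which were lower at both stages, 2.22 for *lhx5*, 2.48 for *prdm14*, 0.82 for *acvr1ba*, 1.99 for *sv2bb* and 1.72 for *pbx3b*.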

How the results depend on the processing

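No named gene reversed its direction under any alternative tried where it was called in the main fit or in that alternative. Changes of sign in genes called in neither were not counted. Of 164 named results called at TB, 98 were called in all 4 fits that left out 1 TB array, and the replicate block lost 0 of them, so that it changed no call other than those given above. Named calls were also lost with limma on the 4 TB arrays alone (38) and with median centring (7). Others were lost with 16 added to the signal (6), with a second quantile normalization (2) and with a variance trend (1). Among the 38 were *sox19a* and 1 probe set of *sox19b*. Counted at the brightest probe set of each gene, this left 2 B1 *sox* genes higher. Filtering dim probe sets kept 125 named calls and removed the probe sets of the others. Of 70 gene list counts, 54 then stayed within 1.5 times of the main count. Lower counts that fell included forebrain and eye field (17 to 7), *hox* (8 to 2) and cadherins, protocadherins and claudins (5 to 2). The block gave 983 lower and 1126 higher probe sets, and 443 for the difference between TB and 75%E. Leaving out 1 array gave 264 to 359 lower, 214 to 286 higher, and 40 to 125 for that difference, the last a check chosen after seeing the data.

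The count of lower and higher probe sets was 271 and 215 at an adjusted p below 0.01, 165 and 93 at an adjusted p below 0.05 with at least a 2-fold change, 169 and 94 by a ratio of mean signals over 2 without a test, and 299 and 317 with 1 probe set per gene. The plain t-test on the 4 TB arrays with Benjamini-Hochberg adjustment called 0 and 0, with 944 and 1070 at an unadjusted p below 0.05. The split of lower and higher calls was 536 and 426 with median centring, 545 and 506 with a second quantile normalization, 360 and 387 with dim probe sets filtered, 537 and 548 with 16 added to the signal, 518 and 503 with a variance trend, and 361 and 329 with limma on the 4 TB arrays. Signals near the dim end limit the size of changes, as given for some of the genes.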
